A study of Mus musculus with 24 samples.

Results

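The nuclear genes described here encode the subunits of respiratory chain complexes II, III and IV and of the ATP synthase, complex V. Members were the genes whose symbol is Sdha to Sdhd, begins with Uqcr, is Cyc1, begins with Cox4i, Cox5, Cox6, Cox7 or Cox8, or begins with Atp5, leaving out symbols with a hyphen. The rule found 50 of 55416 gene IDs, namely 4 for complex II, 9 for complex III, 19 for complex IV and 18 for complex V. Another 7 hyphenated rows, all pseudogenes by their symbols, were left out. RNA was sequenced from 24 mouse kidneys in 4 groups of 6. The groups were PolgD257A kidneys after B-IRI, Polg+/+ kidneys after B-IRI, PolgD257A kidneys after sham surgery and Polg+/+ kidneys after sham surgery. IRI stands for ischemia reperfusion injury, and the study asked what mutations of mitochondrial DNA add to it. Polg encodes the catalytic subunit of the polymerase that copies mitochondrial DNA, and the D257A form lacks proofreading. The mice of both genotypes were littermates. Their age, sex, strain, whether PolgD257A was heterozygous or homozygous and the time after surgery are not given in the sources used here.

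Complex II passes electrons from succinate to ubiquinone and is the only respiratory complex made wholly of nuclear-encoded proteins. Complexes III and IV pass electrons on through cytochrome c to oxygen and pump protons, and complex V uses the proton gradient to make ATP. The catalytic cores of complexes III and IV and the membrane part of complex V contain proteins made from mitochondrial DNA, so that proteins encoded in both genomes have to meet in the same complex. The kidney tubule, above all its proximal part, is rich in mitochondria and makes most of its ATP by this route.

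The libraries held 16689284 to 26341004 reads in genes. Of the 50 members, 47 passed the filter of 10 normalized counts in 6 libraries and were tested among 17430 genes. Cox7b2 reached at most 1.09 and Cox8c at most 1.18 normalized counts in any library. One of the IDs named Atp5o was at 0 in every library, and Atp5o below means the other ID. Cox6c2 is a processed pseudogene in the annotation, and its reads may come from its parent gene. Polg lay between 997 and 1232 normalized counts in all 24 libraries, and a count cannot show the D257A base change, so that the genotype labels were not checked by it. The injury marker Havcr1 averaged 31950 ± 4575 normalized counts in B-IRI PolgD257A kidneys and 14321 ± 7478 in B-IRI Polg+/+ kidneys (SD, n = 6 each). It averaged 171 ± 25.2 in sham PolgD257A kidneys and 143 ± 29.1 in sham Polg+/+ kidneys (SD, n = 6 each), so that every B-IRI library stood far above every sham library. All 16 genes of a list of proximal tubule markers passed the same filter. Exons of 12 members overlap exons of a gene on the other strand (Uqcrb, Uqcrc2, Cox4i1, Cox5a, Cox6a2, Cox6c, Atp5a1, Atp5d, Atp5f1, Atp5j, Atp5l and Atp5o). Whether strand was used in counting is not given in the sources used here, so that reads of these members and their partners may be mixed. A few libraries stood apart from their groups. B-IRI PolgD257A replicates 2 and 3 had a higher level of short transcripts than the other 4, and 5 libraries held over 50 normalized counts of Ucp1, a gene of brown fat. Results that rest on them are given with and without them. A test called a gene when limma's p-value, adjusted by the Benjamini-Hochberg method over all 17430 genes, was under 0.05.

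Promoter windows are shown for the members with the largest called fall in complexes II, III and V, for Cox7a1 and Cox6b2 of complex IV, the largest fall beside the sparse Cox8b and the one rise, and for Sdhd, whose window holds 3 kinds of match. Each window runs over 250 bases before and 50 bases after the start of the gene, read 5′ to 3′ on the strand of the gene, from RefSeq on GRCm38.p6. Capitals mark matches to short binding motifs of factors known to drive mitochondrial genes, searched on both strands. These were AAGGTCA for the estrogen-related receptors, CCGGAAG for GABPA, TGCGCA for NRF1 and ATGGCGG for YY1.
Sdhb, chr4:140961021-140961320, plus strand: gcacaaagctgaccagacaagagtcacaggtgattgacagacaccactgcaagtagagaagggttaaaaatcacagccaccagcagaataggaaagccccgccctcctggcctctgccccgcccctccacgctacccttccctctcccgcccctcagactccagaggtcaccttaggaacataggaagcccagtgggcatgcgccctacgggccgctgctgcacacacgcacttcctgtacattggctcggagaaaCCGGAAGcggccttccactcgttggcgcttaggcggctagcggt
Sdhd, chr9:50603800-50604099, minus strand: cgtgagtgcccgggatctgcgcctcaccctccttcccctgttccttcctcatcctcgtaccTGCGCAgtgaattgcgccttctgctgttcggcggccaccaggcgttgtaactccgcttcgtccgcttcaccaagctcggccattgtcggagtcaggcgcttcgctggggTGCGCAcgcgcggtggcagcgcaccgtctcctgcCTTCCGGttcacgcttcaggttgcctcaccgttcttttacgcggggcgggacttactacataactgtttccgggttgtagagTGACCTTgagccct
Uqcr11, chr10:80406772-80407071, minus strand: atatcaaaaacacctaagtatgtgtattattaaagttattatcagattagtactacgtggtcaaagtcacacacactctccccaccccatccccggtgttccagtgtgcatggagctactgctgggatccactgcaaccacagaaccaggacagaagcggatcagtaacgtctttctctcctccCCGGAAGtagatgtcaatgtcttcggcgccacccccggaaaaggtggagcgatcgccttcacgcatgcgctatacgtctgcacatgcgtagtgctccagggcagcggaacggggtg
Cox7a1, chr7:30183921-30184220, plus strand: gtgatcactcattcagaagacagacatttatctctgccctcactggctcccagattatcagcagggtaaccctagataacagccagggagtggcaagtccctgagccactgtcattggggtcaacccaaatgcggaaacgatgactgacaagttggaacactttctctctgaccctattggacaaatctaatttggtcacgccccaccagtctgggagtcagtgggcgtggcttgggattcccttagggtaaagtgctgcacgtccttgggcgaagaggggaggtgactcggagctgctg
Cox6b2, chr7:4753045-4753344, minus strand: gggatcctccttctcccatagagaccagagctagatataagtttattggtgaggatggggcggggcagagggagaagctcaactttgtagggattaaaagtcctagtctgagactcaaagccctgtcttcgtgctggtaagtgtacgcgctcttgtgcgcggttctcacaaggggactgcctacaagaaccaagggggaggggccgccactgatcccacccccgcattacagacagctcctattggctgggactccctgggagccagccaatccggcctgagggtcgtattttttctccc
Atp5k, chr5:108434350-108434649, minus strand: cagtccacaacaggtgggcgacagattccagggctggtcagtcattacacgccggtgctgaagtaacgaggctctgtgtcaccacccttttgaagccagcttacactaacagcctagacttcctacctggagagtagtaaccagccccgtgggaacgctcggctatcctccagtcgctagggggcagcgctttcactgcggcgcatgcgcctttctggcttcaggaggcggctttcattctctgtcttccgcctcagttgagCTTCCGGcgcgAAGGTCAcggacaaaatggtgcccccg
Of the tested members, 33 had such a window. CCGGAAG occurred in 11 of the 33 windows (33.3%) and in 9.12% of all 27025 windows. TGCGCA occurred in 7 (21.2%), against 8.06% of all windows, and AAGGTCA in 5 (15.2%), against 4.66% of all windows. ATGGCGG occurred in 1 (3.03%), against 4.19% of all windows. Sdhb carried CCGGAAG 6 bases past its start, and Uqcr11 carried it 66 bases before its start. Sdhd and Atp5k each held matches to AAGGTCA and CCGGAAG, and Sdhd held TGCGCA at 2 places. The windows of Cox7a1 and Cox6b2 held none of the 4 motifs. A match is a run of letters, and only these exact strings were searched, so that other forms of a site stay unmarked. A window without a match may still hold a site, and binding was not measured.

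After B-IRI nearly all of these transcripts were lower in PolgD257A kidneys than after sham surgery. Of the 47 tested members 44 fell, 1 rose and 2 were not called, while 60.4% of all genes tested were called, 30.3% falling and 30.2% rising. The 44 include the sparse Cox8b, which passed the filter only through libraries outside the B-IRI PolgD257A group. The median log2 fold change of the members was -0.54, which leaves 68.8% of the sham level, against -0.0011 over all genes tested. In Polg+/+ kidneys 17 of the 47 members fell after B-IRI and limma called 0 higher, while 19.8% of all genes fell and 21.4% rose. At an unadjusted p under 0.05 limma had 1 higher member, Cox6a2, and edgeR and DESeq2 called 0 higher. The median of the members in that genotype was -0.20, or 87.0% of the sham level. Under quantile normalization the median was -0.32 in PolgD257A kidneys and -0.08 in Polg+/+ kidneys. In whole kidney RNA, fewer cells of a type and less of the transcript per cell cannot be told apart. The 16 proximal tubule markers moved the same way: all 16 fell in PolgD257A kidneys after B-IRI (median log2 fold change -1.07) and 11 of the 16 fell in Polg+/+ kidneys (median -0.44). Their summed level was 198471 to 279416 normalized counts in B-IRI PolgD257A kidneys and 315132 to 418976 in B-IRI Polg+/+ kidneys. In sham kidneys it was 584690 to 677295 in PolgD257A and 522481 to 636952 in Polg+/+. Of 12 markers of the loop of Henle, distal tubule and collecting duct 8 fell in PolgD257A kidneys, against 4 that fell and 2 that rose in Polg+/+ kidneys. All 10 markers of tubular injury rose in both genotypes. Of 10 fibroblast and endothelial markers 7 rose and 2 fell in PolgD257A kidneys, against 4 and 2 in Polg+/+ kidneys, and of 11 tested immune markers 5 rose and 1 fell in either genotype. The part of cell composition in the members' fall was not tested.

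**Figure D1:**
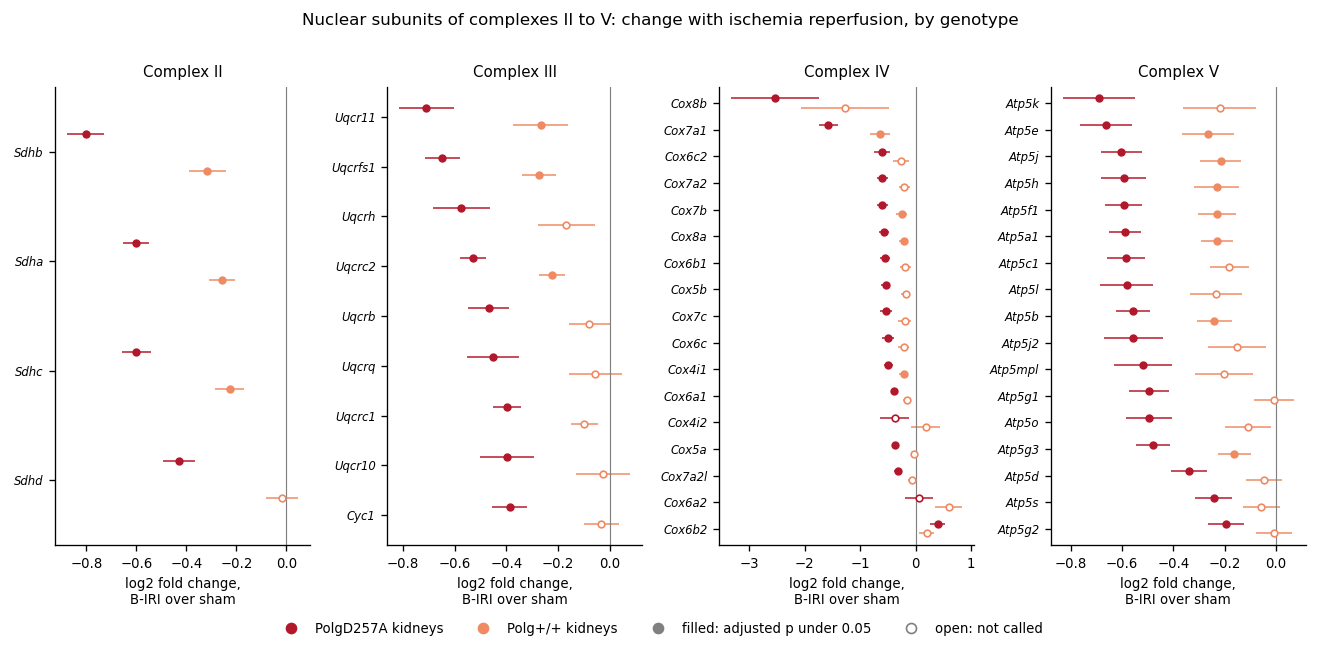
Log2 fold change of each tested member, B-IRI over sham, with its standard error, in PolgD257A kidneys (dark red) and Polg+/+ kidneys (orange), 6 libraries a group. Filled points have an adjusted p under 0.05, and the scale of complex IV is wider. The dark red points lie left of the orange ones for nearly every member, with Cox6b2 on the other side of 0.

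All 4 subunits of complex II fell in PolgD257A kidneys after B-IRI, with a median log2 fold change of -0.60. Sdhb, on chr4:140961203-140979193 (GRCm38, plus strand), is the iron-sulfur subunit that carries electrons through the complex. It had 5373, 5580 and 7200 normalized counts as lowest, median and highest values in B-IRI PolgD257A kidneys, against 9294, 10471 and 12281 in sham PolgD257A kidneys. No library of one group reached into the other, and the log2 fold change was -0.80 ± 0.07 (SE, limma adjusted p = 6.89e-10). In Polg+/+ kidneys Sdhb had 7370, 7792 and 8848 normalized counts after B-IRI, against 9094, 9800 and 10394 after sham surgery. These groups did not overlap either, with a smaller log2 fold change of -0.32 ± 0.07 (SE, limma adjusted p = 0.00126). Sdha, the flavoprotein that oxidizes succinate, had 14115, 15511 and 16482 normalized counts in B-IRI PolgD257A kidneys, against 22401, 23396 and 24586 in sham PolgD257A kidneys. It fell by 0.60 on the log2 scale in PolgD257A kidneys and by 0.26 in Polg+/+ kidneys. Sdhc and Sdhd encode the membrane anchor that binds ubiquinone. Sdhc fell in both genotypes (log2 fold change -0.60 in PolgD257A kidneys and -0.23 in Polg+/+ kidneys). Sdhd fell in PolgD257A kidneys (-0.43), whereas its value in Polg+/+ kidneys, -0.02 ± 0.06, did not pass the test (SE, limma adjusted p = 0.857).

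All 9 nuclear subunits of complex III fell in PolgD257A kidneys after B-IRI, and 3 of the 9 fell in Polg+/+ kidneys. The called ones in Polg+/+ kidneys were Uqcrc2, a core protein of the matrix side, Uqcrfs1, the Rieske iron-sulfur protein, and the small subunit Uqcr11. Uqcrc2 had 6165, 6509 and 7490 normalized counts (lowest, median, highest) in B-IRI PolgD257A kidneys, against 9130, 9573 and 10347 in sham PolgD257A kidneys. It had 7687, 7953 and 8387 in B-IRI Polg+/+ kidneys, against 8587, 9432 and 9858 in sham Polg+/+ kidneys, so that neither pair of groups overlapped. Its log2 fold changes were -0.53 ± 0.05 in PolgD257A kidneys and -0.22 ± 0.05 in Polg+/+ kidneys (SE). Uqcr11 showed the largest fall of the complex in PolgD257A kidneys, -0.71 ± 0.11 (SE, limma adjusted p = 2.33e-06). Its highest B-IRI PolgD257A library, at 5077 normalized counts, passed the lowest sham PolgD257A library, at 4689, so that these groups overlapped. Cyc1, the cytochrome that hands electrons to cytochrome c, fell by 0.39 on the log2 scale in PolgD257A kidneys. In Polg+/+ kidneys the value for Cyc1 was -0.03 ± 0.07 (SE, limma adjusted p = 0.721).

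Complex IV held every exception to the common direction. Of its 17 tested members 14 fell in PolgD257A kidneys after B-IRI, 1 rose and 2 were not called, and 4 fell in Polg+/+ kidneys. The 14 include the sparse Cox8b, described below. Cox4i1, the common form of the largest nuclear subunit, had 13647, 14384 and 18107 normalized counts in B-IRI PolgD257A kidneys, against 18684, 21961 and 25333 in sham PolgD257A kidneys. These groups did not overlap, and the log2 fold change was -0.50 ± 0.08 (SE, limma adjusted p = 6.36e-06). Cox5a fell by 0.37 in PolgD257A kidneys, and its value in Polg+/+ kidneys was -0.03 ± 0.05 (SE, limma adjusted p = 0.732). Cox7a2l, which joins complexes III and IV into supercomplexes, changed least among the called ones, by -0.32 ± 0.07 (SE) in PolgD257A kidneys.

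Tissue isoforms of complex IV subunits stood apart. Cox7a1, on chr7:30184144-30186078 (GRCm38, plus strand), is the form of subunit VIIa known from heart and skeletal muscle. It had 109, 136 and 276 normalized counts in B-IRI PolgD257A kidneys, against 345, 492 and 598 in sham PolgD257A kidneys. All 6 B-IRI libraries lay below all 6 sham libraries, and the log2 fold change was -1.58 ± 0.18 (SE, limma adjusted p = 1.89e-08), a 2.98-fold lower level. In Polg+/+ kidneys Cox7a1 had 243, 272 and 324 normalized counts after B-IRI, against 362, 406 and 573 after sham surgery, with a log2 fold change of -0.65 ± 0.18 (SE, limma adjusted p = 0.00438). The common form of the same subunit, Cox7a2, fell in PolgD257A kidneys (-0.60) and was not called in Polg+/+ kidneys (-0.20). Cox6b2, on chr7:4751792-4753094 (GRCm38, minus strand), the form of subunit VIb known from testis, was the one member that rose, while the common form Cox6b1 fell by 0.55 on the log2 scale. It had 163, 195 and 276 normalized counts in B-IRI PolgD257A kidneys, against 125, 152 and 200 in sham PolgD257A kidneys. The groups overlapped in part, and the log2 fold change of Cox6b2 was 0.40 ± 0.14 (SE, limma adjusted p = 0.0149). Without B-IRI PolgD257A replicate 6, the highest library, it was 0.31 with an adjusted p of 0.0518. Cox4i2 and Cox6a2, the lung and muscle forms of subunits IV and VIa, reached at most 29.5 and 101 normalized counts in any library and were not called in any comparison.

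Cox8b, a form of subunit VIII found in muscle and brown fat of mice, had the largest fitted change and the least even values. It lay between 0 and 2.18 normalized counts in B-IRI PolgD257A kidneys, with a median of 0.797, against 1.08 to 101 with a median of 6.13 in sham PolgD257A kidneys. Its log2 fold change was -2.54 ± 0.79 (SE, limma adjusted p = 0.00751), and it passed the filter only through its higher libraries. No B-IRI PolgD257A library was among those, so that the filter itself favored a fall and the call is no independent test. The libraries with the highest Cox8b also held Ucp1, the uncoupling protein of brown fat. Sham PolgD257A replicate 3 had 101 normalized counts of Cox8b and 585 of Ucp1, and B-IRI Polg+/+ replicate 6 had 35.0 of Cox8b and 267 of Ucp1. Sham Polg+/+ replicate 5, by contrast, had 20.1 of Cox8b and 8.28 of Ucp1. Of 7 fat cell markers 6 were tested, and their summed level ranged over 52.4 to 105 normalized counts in B-IRI PolgD257A kidneys and 59.9 to 744 in B-IRI Polg+/+ kidneys. In sham kidneys it ranged over 14.8 to 1940 in PolgD257A and 29.7 to 3516 in Polg+/+. Without the 5 libraries over 50 normalized counts of Ucp1, Cox8b changed by -1.28 and was not called (limma adjusted p = 0.0565), and 43 members were called lower in place of 44. Leaving these out did not remove all libraries with fat transcripts. Sham Polg+/+ replicates 3 and 5, with 261 and 470 normalized counts of the fat cell gene Adipoq, the highest of all libraries, were kept. The part of fat in the value of Cox8b was not tested. Of the muscle markers 1 of 6 was tested, with a summed level of at most 20.8 normalized counts in any library. The sperm markers summed to at most 1.67.

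**Figure D2:**
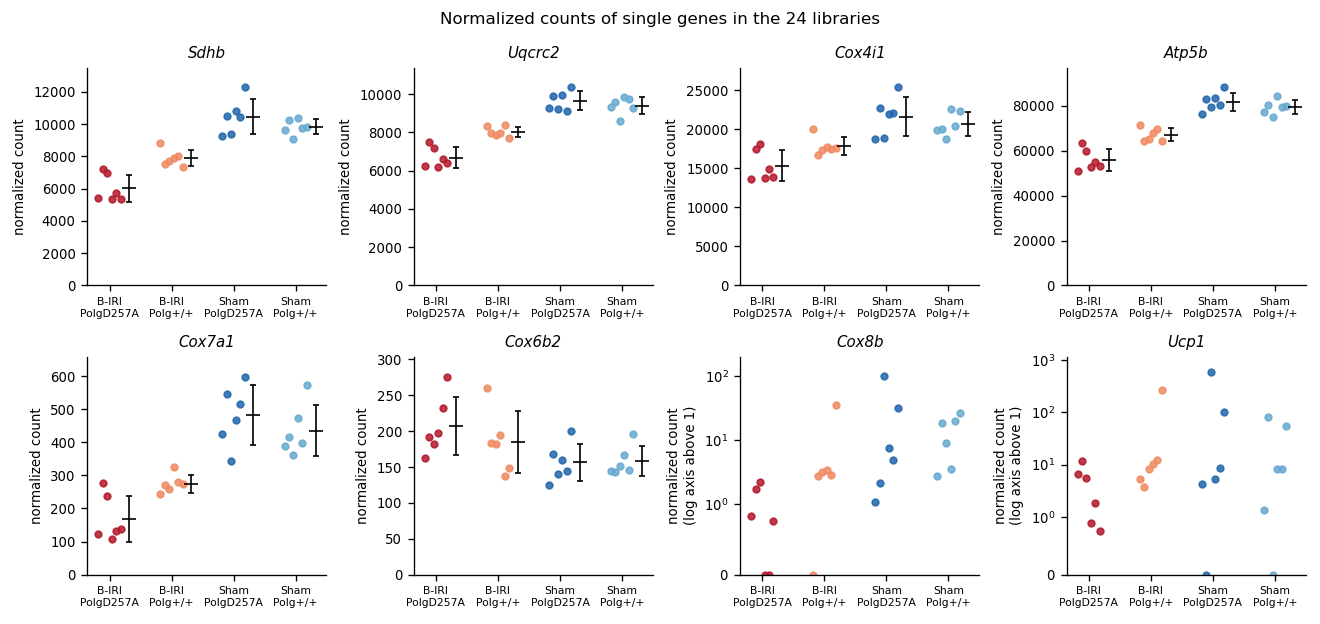
Normalized counts of 7 members and of the brown fat gene Ucp1 in every library, with the mean and SD of each group of 6 beside the points, except for Cox8b and Ucp1, which have a log axis above 1 and no mean. B-IRI PolgD257A libraries are lowest on average for Sdhb, Uqcrc2, Cox4i1, Atp5b and Cox7a1, those of Cox6b2 are highest on average, and the highest points of Cox8b and Ucp1 are the same libraries in sham PolgD257A and B-IRI Polg+/+ kidneys.

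All 17 tested members of complex V fell in PolgD257A kidneys after B-IRI, and 7 of the 17 fell in Polg+/+ kidneys. Atp5b, on chr10:128083273-128090391 (GRCm38, plus strand), is the catalytic beta subunit. It had 50884, 53973 and 63288 normalized counts in B-IRI PolgD257A kidneys, against 76416, 81755 and 88194 in sham PolgD257A kidneys. It had 64295, 66635 and 71667 in B-IRI Polg+/+ kidneys, against 75111, 79737 and 84324 in sham Polg+/+ kidneys. The groups did not overlap in either genotype, and the log2 fold changes of Atp5b were -0.56 ± 0.07 in PolgD257A kidneys (SE, limma adjusted p = 6.98e-08) and -0.24 ± 0.07 in Polg+/+ kidneys (SE, limma adjusted p = 0.00553). Atp5a1, the alpha subunit beside it, changed by -0.59 ± 0.06 in PolgD257A kidneys and -0.23 ± 0.06 in Polg+/+ kidneys (SE). The largest fall of the complex in PolgD257A kidneys was that of Atp5k, the small membrane subunit e, at -0.69 ± 0.14 (SE, limma adjusted p = 0.000139). Atp5g1, Atp5g2 and Atp5g3 encode the same mature subunit c, which forms the rotor ring. Atp5g3 fell in both genotypes (log2 fold change -0.48 in PolgD257A kidneys and -0.16 in Polg+/+ kidneys). Atp5g1 fell in PolgD257A kidneys, by 0.50, and its value in Polg+/+ kidneys was -0.01 ± 0.08 (SE, limma adjusted p = 0.947). Atp5g2 changed least of all members of the complex, by -0.20 ± 0.07 in PolgD257A kidneys (SE, limma adjusted p = 0.0182). Atp5s, which is named with the family and is no structural subunit, changed by -0.24 in PolgD257A kidneys.

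Non-overlap of the 6 B-IRI and 6 sham libraries gave a count that does not rest on a model. In PolgD257A kidneys 20 of the 47 members lay lower in every B-IRI library than in any sham library, against 17.5% of all genes. In Polg+/+ kidneys 10 of the 47 members did, against 8.7% of all genes. These 10 were Sdha, Sdhb and Sdhc of complex II, Uqcrc2 and Uqcrfs1 of complex III, Cox7a1 of complex IV, and Atp5a1, Atp5b, Atp5e and Atp5f1 of complex V. None of the 47 members lay higher in every B-IRI library, against 18.8% of all genes in PolgD257A kidneys and 11.5% in Polg+/+ kidneys.

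The members were compared between the genotypes in the B-IRI kidneys and by the interaction. Between B-IRI PolgD257A and B-IRI Polg+/+ kidneys 35 of the 47 members were lower, while 15.2% of all genes were lower and 14.3% higher. That count of 35 was 24 to 40 with 1 library left out at a time. It was 27 with no filter on low values, 29 with quantile normalization and 31 by edgeR. limma called 0 members higher, also at an unadjusted p under 0.05, as did edgeR and DESeq2. The median log2 fold change of the members was -0.29, or 81.7% of the B-IRI Polg+/+ level. Other lists also differed between these groups. Of the 16 proximal tubule markers 13 were lower and 0 higher (median -0.65). Of 12 markers of the loop of Henle, distal tubule and collecting duct 10 were lower and 0 higher (median -0.59). Of 10 fibroblast and endothelial markers 7 were higher and 0 lower, and of 11 tested immune markers 5 were higher and 1 lower. Of 36 nuclear complex I subunits 31 were lower and 0 higher (median -0.32). Of 10 markers of tubular injury 9 were higher and 0 lower (median 1.29). By complex the lower members were 4 of 4, 8 of 9, 9 of 17 and 14 of 17 for complexes II, III, IV and V. Sdhb differed by -0.40 ± 0.07 and its groups did not overlap (SE, limma adjusted p = 0.000196). Cox7a1 differed by -0.78 ± 0.18 (SE, limma adjusted p = 0.00137), with libraries of both groups between 243 and 276 normalized counts. The authors' deposited table for this comparison has 1401 rows of selected genes, and only 1 of the members, Cox7a1, is among them. It gives Cox7a1 a shrunken log2 fold change of -0.612, a standard error of 0.190 and an s-value of 8.62e-05. Groups did not overlap for 10 of the 47 members, all lower in B-IRI PolgD257A kidneys. Of all genes 5.94% lay lower and 4.65% higher without overlap.

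The interaction asked whether B-IRI changed a transcript by a different amount in PolgD257A than in Polg+/+ kidneys. It was below 0 and called for 24 of the 47 members, while 9.08% of all genes were called below 0 and 6.87% above. Above 0 limma called 0 members, also at an unadjusted p under 0.05, as did edgeR and DESeq2. The called members were 4 of 4 in complex II, 6 of 9 in complex III, 4 of 17 in complex IV and 10 of 17 in complex V. The median interaction of the members was -0.36 on the log2 scale. Among the called members it ranged over -0.49 for Atp5g1 to -0.29 for Atp5d, except for Cox7a1, at -0.93 ± 0.25 (SE, limma adjusted p = 0.0123). Sdhb stood at -0.49 ± 0.11 and Atp5g1 at -0.49 ± 0.11 (SE, limma adjusted p = 0.00277 and 0.00364). The 4 called members of complex IV were Cox5a, Cox5b, Cox7a1 and Cox8a. The interaction was also called below 0 for 12 of 16 proximal tubule markers (median -0.66) and 26 of 36 nuclear complex I subunits (median -0.38). In these lists 0 genes were called above 0, whereas 9 of 10 markers of tubular injury were (median 1.29). Whether the members differ from these lists, and the part of injury or cell composition, was not tested.

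Without B-IRI no member was called between the genotypes. Between sham PolgD257A and sham Polg+/+ kidneys limma called 0 of the 47 members, as did edgeR and DESeq2, while limma called 0.126% of all genes, 0.0861% higher and 0.0402% lower. At an unadjusted p under 0.05, limma gave 1 higher member, Cox6a2, and 0 lower ones. Of the 47 members 45 had a value above 0, with a median log2 fold change of 0.06. That median moved with single libraries: it was 0.02 without sham PolgD257A replicate 6, 0.11 without replicate 3, 0.10 without replicate 1 of the same group, 0.10 without sham Polg+/+ replicate 4 and 0.03 without sham Polg+/+ replicate 3. Quantile normalization gave 0.03. The widest values were those of Cox6a2, 0.70 ± 0.25 (SE, limma adjusted p = 0.423), and Cox4i2, 0.54 ± 0.26 (SE, limma adjusted p = 0.681). Sdha had 22401 to 24586 normalized counts in sham PolgD257A kidneys, against 22060 to 23833 in sham Polg+/+ kidneys, so that the groups overlapped over much of their range. No member lay above or below without overlap between the sham groups, against 0.379% of all genes above and 0.252% below. A value that misses the threshold does not show that the genotypes were equal.

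Libraries of one group were not alike. The median log2 level of the members, set against the sham Polg+/+ mean of each gene, was -0.59 to -0.61 in 4 of the B-IRI PolgD257A libraries, but -0.15 in replicate 2 and -0.26 in replicate 3. In B-IRI Polg+/+ kidneys it ranged over -0.26 to -0.08, so that these 2 PolgD257A libraries lay within or beside the Polg+/+ range. Havcr1 was no lower in them, at 35712 and 33059 normalized counts, against 25923 to 36062 in the other 4. Complex II kept them more apart from Polg+/+ than the other complexes did, with means of -0.33 and -0.41, both below the range of B-IRI Polg+/+ kidneys, which began at -0.29. Within B-IRI Polg+/+ kidneys Havcr1 spanned 5441 to 24888 normalized counts. From the lowest to the highest Havcr1, the median member levels of these libraries were -0.08, -0.22, -0.17, -0.17, -0.26 and -0.20.

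The same libraries also differed in short transcripts outside the members. Many members are longer than the cut used below, such as Sdha and Atp5b with 4126 and 4237 bases of exon. Over 311 genes outside these pathways with less than 1000 bases of exon and at least 100 normalized counts, the median log2 level against sham Polg+/+ kidneys was 0.15 and 0.11 in B-IRI PolgD257A replicates 2 and 3. It was -0.15 to -0.03 in the other 4 B-IRI PolgD257A libraries. Sham PolgD257A replicate 6, which had the highest median member level of all 24 libraries (0.32), also had the highest level of short genes (0.23). With this level as a covariate, chosen after the data were seen, 44 members fell in PolgD257A kidneys, with a median of -0.48, and 37 in Polg+/+ kidneys, with a median of -0.26. The interaction then called 33 of the 47 members in place of 24, while its median was smaller in size, at -0.24 in place of -0.36. The median difference between B-IRI PolgD257A and B-IRI Polg+/+ kidneys was then -0.21 in place of -0.29. Without both B-IRI PolgD257A libraries, 44 members fell in PolgD257A kidneys, with a median of -0.66, 40 were lower than in B-IRI Polg+/+ kidneys, and the interaction called 41. These 2 libraries had the highest member levels of their group, so that a deeper fall followed from leaving them out. These counts are therefore no check of the fall. What set the level of short transcripts in these libraries was not tested.

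**Figure D3:**
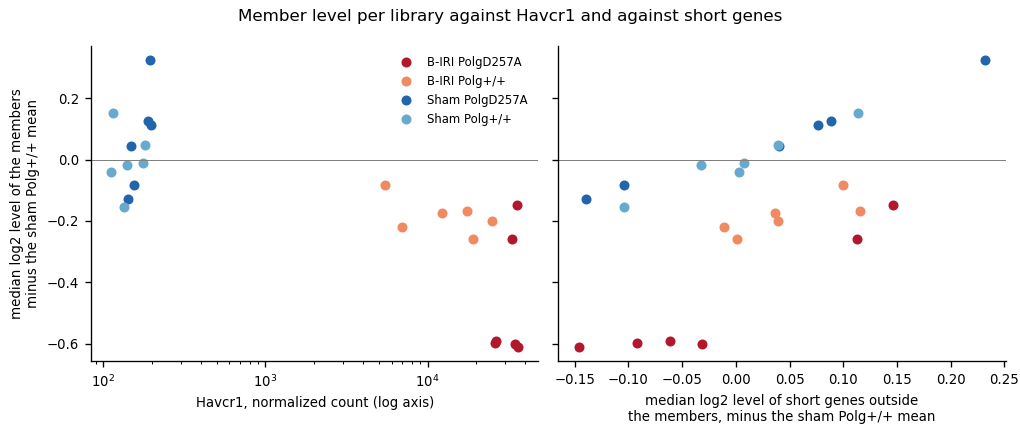
Median log2 level of the 47 tested members in each library, minus the sham Polg+/+ mean, against the normalized count of Havcr1 on a log axis (left) and against the median log2 level of 311 short genes outside the members (right). Of the B-IRI PolgD257A libraries 4 lie near -0.60 and 2 between -0.26 and -0.15, and these 2 have the higher level of short genes.

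The count in Polg+/+ kidneys was the least firm. Without B-IRI Polg+/+ replicate 2, 3, 4 or 6, limma called 9, 9, 9 or 10 members lower in place of 17, and without sham Polg+/+ replicate 1, 4 or 6 it called 11, 9 or 9. Leaving out the 5 libraries over 50 normalized counts of Ucp1 gave 8 lower members in Polg+/+ kidneys and 12 in the interaction. Quantile normalization gave 6 in Polg+/+ kidneys, 38 in PolgD257A kidneys and 10 in the interaction. Under quantile normalization the values of Atp5a1 and Atp5g3 in Polg+/+ kidneys, both called lower without it, were 0.0289 and 0.0285 on the log2 scale. Without B-IRI PolgD257A replicate 2, the highest of its group in member level, the interaction called 39 members.

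**Figure D4:**
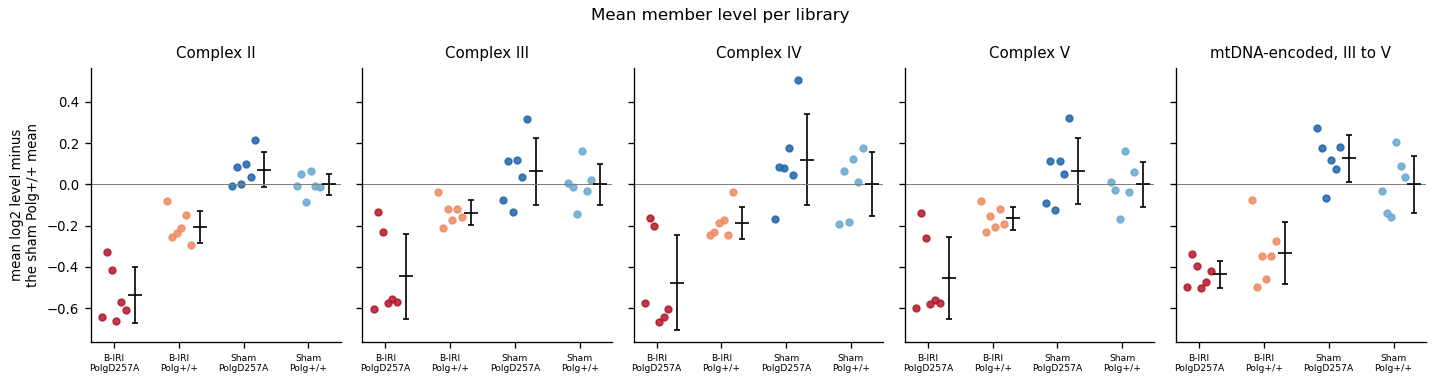
Mean log2 level of the tested members of each complex, and of the 6 mitochondrially encoded subunits of complexes III to V, in each library, minus the sham Polg+/+ mean, with the mean and SD of each group of 6. The nuclear members of B-IRI PolgD257A kidneys split into 4 lower and 2 higher libraries. The mitochondrially encoded subunits lie between -0.50 and -0.34 in B-IRI PolgD257A kidneys and between -0.50 and -0.08 in B-IRI Polg+/+ kidneys. The mean of complex IV includes Cox8b, whose highest values are in libraries with Ucp1.

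The partners made from mitochondrial DNA were also lower after B-IRI. All 6 mitochondrially encoded subunits of complexes III to V fell in PolgD257A kidneys after B-IRI (median log2 fold change -0.53), and 5 of the 6 fell in Polg+/+ kidneys (median -0.33). Between the B-IRI groups 1 of the 6 was lower in PolgD257A kidneys, while 15.2% of all genes were, and the median difference was -0.05. The lower subunit was mt-Cytb, the cytochrome b of complex III, at -0.41 ± 0.11 (SE, limma adjusted p = 0.00454). The interaction called 0 of the 6 by limma, also at an unadjusted p under 0.05, whereas edgeR called mt-Co1 and DESeq2 called mt-Co1 and mt-Cytb, all below 0. Per library their mean log2 level was -0.50 to -0.34 in B-IRI PolgD257A kidneys, -0.50 to -0.08 in B-IRI Polg+/+ kidneys, -0.07 to 0.27 in sham PolgD257A kidneys and -0.16 to 0.20 in sham Polg+/+ kidneys. Whether nuclear and mitochondrial subunits differ in their response was not tested.

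Isoform and paralog shares compare genes within a library, so that a scaling of the whole library drops out. Cox7a1 made up 3.36% ± 0.73 of the normalized counts of Cox7a1 and Cox7a2 in B-IRI PolgD257A kidneys and 6.31% ± 0.50 in sham PolgD257A kidneys (SD, n = 6 each). All 6 B-IRI libraries were lower (exact two-sided permutation test, p = 0.00216, the smallest that 924 relabelings can give, adjusted p = 0.0144 over 20 tests). In Polg+/+ kidneys the share of Cox7a1 was 4.54% ± 0.56 after B-IRI and 6.08% ± 0.75 after sham surgery (SD, n = 6 each, exact permutation adjusted p = 0.0216). Between B-IRI PolgD257A and B-IRI Polg+/+ kidneys the share differed by -1.18 percentage points, with an exact permutation adjusted p of 0.0606. Without B-IRI PolgD257A replicates 2 and 3 that difference was -1.62 percentage points and passed the test (adjusted p = 0.0317, exact permutation test). These 2 libraries had the highest Cox7a1 shares of their group, so that leaving them out had to widen the difference. Atp5g1 made up 27.9% ± 1.02 of the 3 subunit c transcripts in B-IRI PolgD257A kidneys and 29.8% ± 0.49 in B-IRI Polg+/+ kidneys (SD, n = 6 each, exact permutation adjusted p = 0.0144), and these groups did not overlap. In sham PolgD257A kidneys the Atp5g1 share was 28.8% ± 0.70 (SD, n = 6), from which B-IRI PolgD257A kidneys differed by -0.83 percentage points with an exact permutation adjusted p of 0.186. In sham Polg+/+ kidneys it was 27.9% ± 0.73, and the B-IRI Polg+/+ libraries lay above all of these (SD, n = 6, exact permutation adjusted p = 0.0144). Without B-IRI PolgD257A replicates 2 and 3 the difference in PolgD257A kidneys was -1.45 percentage points and passed the test (adjusted p = 0.0317, exact permutation test). Both libraries also had the highest Atp5g1 shares of their group, so that this difference too had to widen. The shares of Cox4i2, Cox6a2 and Cox8b gave 0 called differences in the 4 comparisons by the exact permutation test, and 4 of their 12 tests had an unadjusted p under 0.05. These were Cox6a2 in Polg+/+ kidneys after B-IRI and between the sham groups, and Cox8b in both comparisons of B-IRI PolgD257A kidneys.

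**Figure D5:**
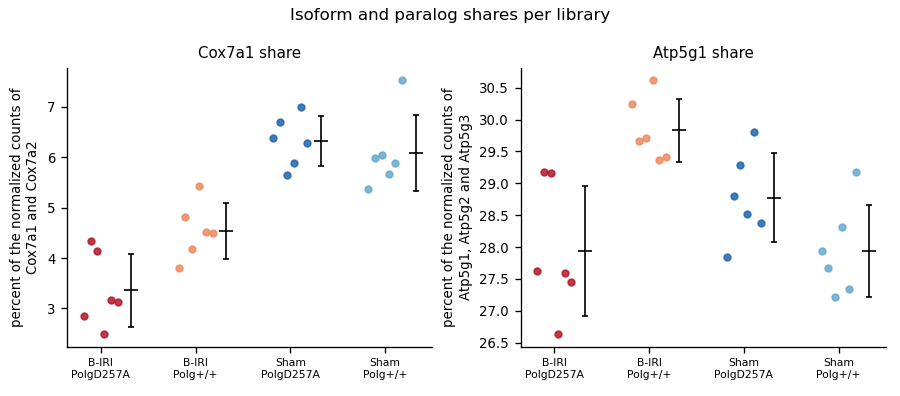
Share of Cox7a1 in the normalized counts of Cox7a1 and Cox7a2 (left) and of Atp5g1 in those of Atp5g1, Atp5g2 and Atp5g3 (right), in percent, in each library, with the mean and SD of each group of 6; the axes do not start at 0. The Cox7a1 share is lowest in B-IRI PolgD257A kidneys at 3.36% on average, and the Atp5g1 share is highest in B-IRI Polg+/+ kidneys at 29.8%.

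Levels between subunits were compared per kilobase of exon. In B-IRI PolgD257A kidneys the complex II transcripts had 4054 ± 506 normalized counts per kilobase for Sdhd, 3733 ± 193 for Sdha, 2685 ± 374 for Sdhb and 1734 ± 203 for Sdhc (SD, n = 6). In sham Polg+/+ kidneys they had 5082 ± 266 for Sdhd, 5532 ± 188 for Sdha, 4392 ± 206 for Sdhb and 2488 ± 88.2 for Sdhc (SD, n = 6). Sdhd and Sdha lay within their spread of each other in B-IRI PolgD257A kidneys, and Sdhc was lowest in both groups. In complex V, Atp5b and Atp5a1 stood far above the other subunits in all groups, at 13157 and 12424 per kilobase in B-IRI PolgD257A kidneys and 18731 and 18091 in sham Polg+/+ kidneys. Atp5g3 was the main subunit c transcript per kilobase, at 6222 in B-IRI PolgD257A kidneys, where Atp5g2 had 1626 and Atp5g1 1293. The order of the last 2 rests on their exon lengths, 1675 bases for Atp5g2 and 4912 for Atp5g1. In normalized counts Atp5g1 lay above Atp5g2 in these kidneys, at 5411 to 7693 against 2418 to 3099. The exon length is the union over all annotated transcripts, which understates the level of genes with long rare transcripts.

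Genes that help build the complexes did not fall as one group. Of all genes tested 30.3% fell and 30.2% rose in PolgD257A kidneys after B-IRI, and 19.8% fell and 21.4% rose in Polg+/+ kidneys. Several counts in the lists below lie near these shares. Of 21 tested assembly factors of complex IV, 8 fell and 2 rose in PolgD257A kidneys after B-IRI, while 1 fell and 7 rose in Polg+/+ kidneys. Cox15, which makes heme a, fell in both genotypes (log2 fold change -0.63 in PolgD257A kidneys and -0.37 in Polg+/+ kidneys), and Coa3 rose in both (0.25 in PolgD257A kidneys and 0.43 in Polg+/+ kidneys). Of 6 factors of complex III, 2 fell and 1 rose in PolgD257A kidneys and 3 rose in Polg+/+ kidneys, with Uqcc2 rising in both (0.33 in PolgD257A kidneys and 0.40 in Polg+/+ kidneys). Of 4 factors of complex II, 2 fell in PolgD257A kidneys (Sdhaf1 and Sdhaf4). All 5 factors of complex V fell in PolgD257A kidneys, with a median log2 fold change of -0.30. In Polg+/+ kidneys limma called 0 factors of complexes II and V, also at an unadjusted p under 0.05, as did edgeR and DESeq2. The inhibitor of complex V, Atpif1, fell by 0.55 on the log2 scale in PolgD257A kidneys, as did cytochrome c, Cycs, by 0.48. All 36 nuclear subunits of complex I fell in PolgD257A kidneys (median -0.54) and 12 of the 36 fell in Polg+/+ kidneys. Of 10 outer membrane, import and mass markers, 4 fell and 2 rose in PolgD257A kidneys and 6 rose in Polg+/+ kidneys, Tomm40 and Vdac3 in both. The outer membrane channel Vdac1 fell in PolgD257A kidneys by 0.49.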

How the data were processed

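Total RNA of 24 mouse kidneys was extracted with the RNeasy kit and 2 µg went into NEBNext Ultra II libraries, per the labels' protocols. The submitters' processing notes name FastQC, STAR, SAMtools, featureCounts, DESeq2 and the build GRCm38.p6, with no versions or settings. The authors deposited 1 table of read counts divided by size factors (signal, whose low values step by 1 read over the size factor) and 1 table of selected genes for B-IRI PolgD257A against B-IRI Polg+/+. That deposited table holds shrunken log2 fold changes, standard errors and s-values, which were read as an authors' measure akin to a p-value. Columns named Ctrl, Mut and SurgBIR were read as Polg+/+, PolgD257A and B-IRI, and their replicate numbers as those of the sample titles. Whole reads were recovered from 100% of values within 0.001, with size factors of 0.740 to 1.31. Of the gene IDs 94.0% matched a symbol, and GENCODE M21 gave locations, exon lengths and overlaps.

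Values were transformed to log2(normalized count + 1), which understates changes of low genes. Only genes that reached 10 normalized counts in 6 or more libraries were tested, with limma's moderated test with a variance trend (R 4.3.3, limma 3.58.1) in 1 model with a mean per group, with p-values adjusted over all 17430 genes (Benjamini-Hochberg) and a threshold of 0.05. The design had assumed normalized values without recoverable reads, so the count tests with edgeR 4.0.16 and DESeq2 1.42.0 on the recovered reads are alternatives. Over all genes edgeR called 5379 higher and 5261 lower in B-IRI against sham PolgD257A kidneys, beside 5260 and 5274 by limma. Shares were compared by exact permutation tests, adjusted over 20 tests. The procedure was also run on simulated counts with the same dispersion for all genes. The simulation held no differences between replicates of the kind seen here, so it does not bear on them. Python 3.11.15, NumPy 2.4.6, pandas 2.3.3, SciPy 1.17.1 and Matplotlib 3.10.9 were used.

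Members and gene lists were chosen with earlier results of these data known, and the fat markers, the short-gene level and both sets of left-out libraries after the values were seen. Genes were named by a rule: in each complex and comparison up to 3 called members with the largest change and any called against the direction of the rest, with the core subunits, the isoform pairs, the mitochondrially encoded partners and the assembly factors. Genes outside the rule (such as Ucp1, Atp5s, Vdac1, Vdac3 and Tomm40) were chosen after their values were seen. The labels call the samples biological replicates and nothing says that they came from separate mice, so p-values measure the spread between these samples. Replicate numbers did not pair the samples.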

Additional observations from a re-analysis of the deposited data

Results flagged for a closer look

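In groups of 6, a library was set apart when its gap to the nearest other passed Dixon's 95% limit, which chance passes in about 1 of 20 groups. Among normalized counts this held for the highest B-IRI PolgD257A value of Sdhc (6909) and Cox6a2 (101), the highest B-IRI Polg+/+ value of Cox4i1 (20017) and Cox8b (35.0), the lowest B-IRI Polg+/+ value of Atp5g2 (2722), and the highest sham PolgD257A value of Cox5a (4573) and Cox8b (101). It also held for the Cox8b share of Cox8a and Cox8b, at 0.304% in B-IRI Polg+/+ replicate 6 and 0.844% in sham PolgD257A replicate 3, for the Cox7a1 share in 1 sham Polg+/+ library, at 7.52%, and for the mean log2 level of complex IV in 1 B-IRI Polg+/+ library, at -0.038. The high values of Cox8b are those of the libraries with Ucp1. The complex IV value is that of B-IRI Polg+/+ replicate 6, which is among these libraries.

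The change after B-IRI differed between PolgD257A and Polg+/+ kidneys, by limma's interaction term, for 24 members, each with a larger fall in PolgD257A kidneys. On the log2 scale the interaction in complex II was -0.34 for Sdha, -0.49 for Sdhb, -0.37 for Sdhc and -0.41 for Sdhd. In complex III it was -0.30 for Uqcrc1, -0.31 for Uqcrc2, -0.37 for Uqcrfs1, -0.39 for Uqcrb, -0.44 for Uqcr11 and -0.35 for Cyc1. In complex IV it was -0.34 for Cox5a, -0.36 for Cox5b, -0.93 for Cox7a1 and -0.36 for Cox8a. In complex V it was -0.36 for Atp5a1, -0.32 for Atp5b, -0.40 for Atp5c1, -0.29 for Atp5d, -0.36 for Atp5f1, -0.49 for Atp5g1, -0.32 for Atp5g3, -0.36 for Atp5h, -0.39 for Atp5j and -0.38 for Atp5o.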

How the results depend on the processing

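In PolgD257A kidneys 43 to 45 of the 47 members fell under every alternative run except quantile normalization (38). The count of lower members in Polg+/+ kidneys (17) was 9 with no filter on low values, 6 with quantile normalization, 28 with the 12 libraries compared alone, 8 without the libraries with Ucp1 and 37 with the short-gene level as a covariate. Without B-IRI PolgD257A replicates 2 and 3, 1 member, Cox6a2, was called higher there. The interaction (24 lower) gave 10 with quantile normalization, 12 without the libraries with Ucp1 and 41 without B-IRI PolgD257A replicates 2 and 3. Those 2 were the highest of their group in member level and in the shares of Cox7a1 and Atp5g1. Without them the Cox7a1 share differed by -1.62 percentage points between the B-IRI groups, and the Atp5g1 share by -1.45 between B-IRI and sham PolgD257A kidneys. Quantile normalization turned the sign of Atp5g3 and Atp5a1 in Polg+/+ kidneys (0.0285 and 0.0289) and of Atp5b between the B-IRI groups (0.0297). The cause of these changes was not tested.

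With 1 library left out at a time, 0 to 1 members rose in either genotype, 9 to 20 fell in Polg+/+ kidneys and 18 to 39 were called in the interaction. Between the B-IRI groups 24 to 40 members were lower. In percentage points the share differences ranged over 0.0150 to 0.0258 for Cox4i2 and 0.108 to 0.157 for Cox6a2 in Polg+/+ kidneys, 0.0869 to 0.120 for Cox6a2 between the sham groups, and -1.38 to -1.004 for Cox7a1 and -0.0737 to -0.0129 for Cox8b between the B-IRI groups. With the replicate number as a block, 10 members fell in Polg+/+ kidneys, 44 in PolgD257A kidneys, and the interaction called 17. The numbers did not pair the samples: same-numbered samples correlated at -0.33 to 0.17, with 2 of 36 pairs over 0.1. edgeR called 14 and DESeq2 19 members lower in Polg+/+ kidneys. Counts under 10 limit Cox8b, and the missing time, age and sex limit all comparisons.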
